A study of Homo sapiens with 3 samples.

Results

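The keratins of simple epithelia and of the upper and intermediate cell layers were followed as a group of 10 genes, KRT7, KRT8, KRT18, KRT19, KRT20, KRT13, KRT4, KRT23, KRT80 and KRT81. They were chosen by symbol, and each had 1 row among the 29960 genes of the table. Read counts from RNA-Seq covered 5637, an established line of human bladder cancer cells, as the parental line (5637P, genotype WT in the labels) and as a gemcitabine-resistant derivative (5637GR, genotype Gemcitabine Resistant), and all libraries are labelled Untreated. The resistant line was raised by exposure to gemcitabine, described as acute treatment in the labels and as repeated rounds at rising concentration, followed by culture without the drug, in the methods of the study. The series has 3 single-cell clones per group, and counts were used for the 3 libraries with a label, 1 parental (parental 1) and 2 resistant (resistant 1 and resistant 2). A single parental library shows no spread within its group, so the tests assume that it varies like the resistant pair, and each value describes clones of 1 line.

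Keratins are the intermediate filament proteins of epithelial cells. A filament is built from pairs of a type I chain, here KRT13, KRT18, KRT19, KRT20 and KRT23, with a type II chain, here KRT4, KRT7, KRT8, KRT80 and KRT81. In the bladder lining, KRT7, KRT8, KRT18 and KRT19 are simple epithelial keratins, and KRT20 marks the superficial umbrella cells. KRT13 and KRT4 were grouped here with the intermediate layer, a placing that does not exclude basal cells.

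The libraries held 14475531 reads counted on genes in parental 1, 15836788 in resistant 1 and 17461941 in resistant 2. Levels are given as CPM after TMM scaling where 1 gene is compared between libraries, and as FPKM, reads scaled to gene length and library total, where genes are compared with each other. Up to 3 reads were taken as the floor, which is 0.213, 0.184 and 0.173 CPM in the same order of libraries and covers counting error only. The labelled cell type was checked with markers. All 5 epithelial genes were read (EPCAM, CDH1, CLDN4, CLDN7 and ESRP1), with a sum of 1128, 1635 and 1762 CPM. Leukocyte markers summed to at most 0.796 CPM, smooth muscle markers to at most 1.99 CPM and endothelial markers to at most 2.02 CPM. Of 5 fibroblast markers in the table, COL1A1 and COL1A2 carried nearly all of a sum of 146 to 172 CPM, while LUM had 0 reads in every library and COL3A1 at most 2.

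KRT4, a type II keratin that pairs with KRT13 in stratified epithelia that do not cornify, was at or under the floor in both resistant libraries. Its gene (ENSG00000170477) lies on chromosome 12, 53200333 to 53208335, minus strand, in the hg19 coordinates of the table. The promoter is shown because KRT4 had the widest gap between the parental and the resistant reads and was the single member called. RefSeq promoters were matched for 3 of the 10 genes (KRT4, KRT8 and KRT20). The 250 bases before the annotated start of KRT4, on GRCh38.p14 at chr12:52814117-52814366, minus strand, read as follows, with the capitals marking the letters TATAA.
KRT4 promoter: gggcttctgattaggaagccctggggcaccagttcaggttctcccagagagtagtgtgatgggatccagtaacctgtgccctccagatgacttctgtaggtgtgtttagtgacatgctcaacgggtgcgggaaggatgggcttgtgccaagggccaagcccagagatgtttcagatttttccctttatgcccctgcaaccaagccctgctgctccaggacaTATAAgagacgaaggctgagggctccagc
The TATAA run starts 29 bases before the annotated start, and 18.9% of 35116 promoter windows of the same length hold TATAA on either strand. The window holds 3 CpG dinucleotides, against a median of 11 over all windows, and 54.8% G and C. GCCNNNGGC, letters bound by AP-2 factors, occurs 1 time (in 19.8% of all windows), and no match was found for GGGCGG (42.6%), TGANTCA (6.57%) or CCGTTA (2.45%), each searched on both strands.

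KRT4 was read 156 times in parental 1, 0 times in resistant 1 and 1 time in resistant 2. This corresponds to 11.1 CPM in the parental library and 0.0577 CPM in resistant 2, below the floor. The parental level was at least 60.4-fold higher than that of resistant 1 when resistant 1 is set to its floor of 3 reads. Against both resistant libraries together, the ratio was 373 with a 95% counting interval (exact, Clopper-Pearson) of 66.0 to 14836, a width that comes from the 1 read. In edgeR's quasi-likelihood test KRT4 was called lower in the resistant libraries (Benjamini-Hochberg adjusted p = 0.00159). It had passed the filter on low counts through its parental reads alone, so it could enter the test only as a gene that differed, and the call adds nothing to the reads above. Fewer cells with KRT4 and less KRT4 RNA per cell cannot be told apart in bulk RNA. The authors' group means, normalized counts averaged over each group, were 133.2 in the parental and 0.671 in the resistant group. These means cover 3 clones per group, the 3 libraries and clones not used here, so here and below they are not a second reading of the same samples. Of 15643 genes tested, 91 (0.582%) were called lower and 137 (0.876%) in either direction, 46 of them higher. With library totals in place of TMM factors the split was 100 higher and 128 lower.

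KRT13, the type I partner of KRT4, had the next lowest log2 fold change. It lies on chromosome 17, 39657233 to 39661957, minus strand (ENSG00000171401). Its reads numbered 1742 in parental 1, 599 in resistant 1 and 290 in resistant 2, or 124, 36.7 and 16.7 CPM. Both resistant libraries lay well below the parental one, and they also differed from each other, resistant 2 at 0.456 times resistant 1 (95% counting interval 0.395 to 0.526). The log2 fold change was -2.21 ± 0.44 (SE), with an edgeR adjusted p of 0.0540, just outside the threshold of 0.05. DESeq2 on the same counts called KRT13, with an adjusted p of 0.00217. The parental level was 3.38-fold that of resistant 1 and 7.40-fold that of resistant 2. The authors' group means, which cover further clones, were 1757 and 661.6 (2.66-fold). KRT13 was at least 2-fold lower in both resistant libraries, as were 3.65% of all tested genes. KRT4 was too, but it had passed the filter through its parental reads alone and is not set beside this share.

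**Figure D1:**
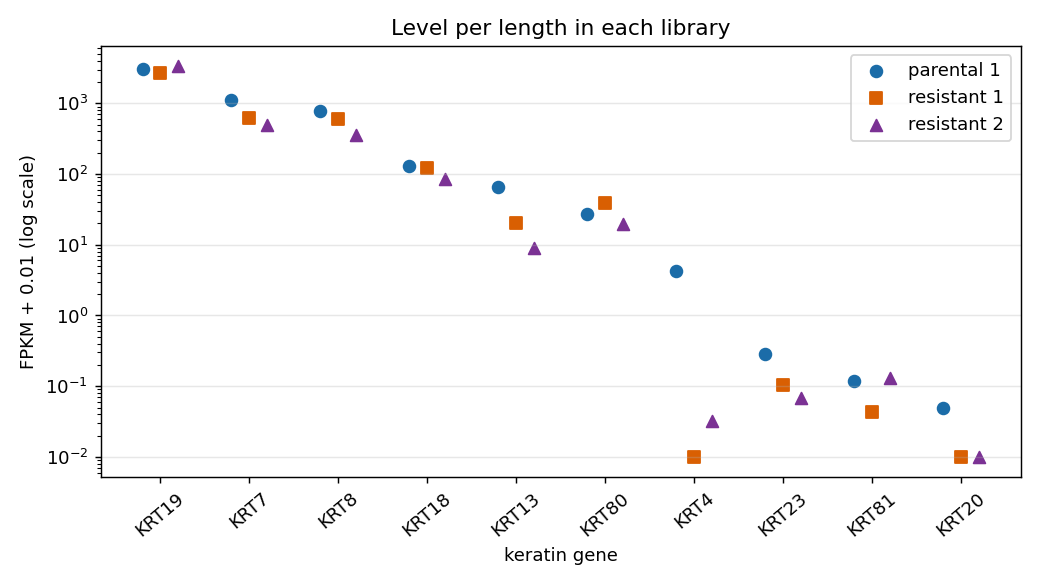
FPKM of each keratin (log axis, 0.01 added) in parental 1 (circles), resistant 1 (squares) and resistant 2 (triangles), 1 point per library. KRT19 was the most abundant in all 3 libraries, KRT13 and KRT4 had their highest point in parental 1, and KRT23, KRT81 and KRT20 lay below 0.3 FPKM throughout.

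The simple epithelial type II keratins KRT7 and KRT8 were abundant and lower in both resistant libraries, but neither passed the test. KRT7 (ENSG00000135480, chromosome 12, 52626304 to 52645970, plus strand), a keratin of ductal and urothelial cells, had 28009 reads in parental 1, 17126 in resistant 1 and 15070 in resistant 2. In CPM these were 1990, 1048 and 869, so both resistant libraries lay below the parental one, and closer to each other than to it. Its log2 fold change was -1.05 ± 0.34 (SE, edgeR adjusted p = 0.304). With KRT13 and KRT4, the latter tested only through its parental reads, it was 1 of 3 members under 0.05 before adjustment. Over all genes tested, 1517 of 15643 were under 0.05 in the same way. The parental library was 2.08-fold the resistant pair for KRT7, and the authors' group means, which cover further clones, were 26085 and 21406 (1.22-fold). KRT8 (ENSG00000170421, chromosome 12, 53290977 to 53343738, minus strand), the common type II keratin of simple epithelia, had 32012, 27243 and 17615 reads, or 2274, 1667 and 1016 CPM. The resistant libraries lay unequally far below the parental one, whose level was 1.36-fold that of resistant 1 and 2.24-fold that of resistant 2. The log2 fold change of KRT8 was -0.76 ± 0.38 (SE, edgeR adjusted p = 0.588), and the authors' means were 29797 and 19338.

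The type I keratins of the same class had log2 fold changes nearer to 0. KRT18 (ENSG00000111057, chromosome 12, 53342655 to 53346685, plus strand), the usual partner of KRT8, had 281 CPM in parental 1, 248 in resistant 1 and 179.7 in resistant 2. Its log2 fold change of -0.39 ± 0.37 (SE) had an adjusted p of 0.855 (edgeR), and the 95% interval of the difference, -1.22 to 0.44, holds both a reduction and an increase. KRT19 (ENSG00000171345, chromosome 17, 39679869 to 39684560, minus strand), the smallest keratin, which lacks the usual tail domain, had 60688, 58713 and 83089 reads. At 4311 CPM the parental library lay between resistant 1 with 3593 and resistant 2 with 4790 CPM. The log2 fold change was -0.04 ± 0.35 (SE, edgeR adjusted p = 0.993), with a 95% interval of -0.81 to 0.73. Its sign was not stable, since library totals gave 0.014 and the authors' group means, 53116 and 62276, a log2 ratio of 0.23. By FPKM, KRT19 stood 2nd, 7th and 3rd among all genes of the table in parental 1, resistant 1 and resistant 2.

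Among the remaining members only KRT80 was well read. KRT80 (ENSG00000167767, chromosome 12, 52562780 to 52585784, minus strand), a type II keratin of differentiating epithelia, had 108 CPM in parental 1, 145 in resistant 1 and 77.1 in resistant 2. Parental 1 lay between the resistant libraries, and resistant 2 held 0.532 times the level of resistant 1 (95% counting interval 0.497 to 0.569). Its log2 fold change was 0.04 ± 0.43 (SE, edgeR adjusted p = 0.994), with a 95% interval of -0.92 to 1.00. KRT20 (ENSG00000171431, chromosome 17, 39032193 to 39041479), the umbrella cell keratin, was at 1, 0 and 0 reads, at or under the floor in every library. KRT23 (ENSG00000108244, chromosome 17, 39078948 to 39093886), a type I epithelial keratin, had 8, 3 and 2 reads, a parental to resistant ratio of 3.83 with a counting interval of 1.10 to 14.9. KRT81 (ENSG00000205426, chromosome 12, 52679697 to 52685318), a hair keratin, had 3, 1 and 4 reads. All 3 were removed by the filter on low counts. A difference of KRT20 or KRT81 was not detectable at this depth, and the interval of KRT23 lay above 1 but covers counting error only. Without the filter, the edgeR adjusted p of KRT23 was 0.859.

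**Figure D2:**
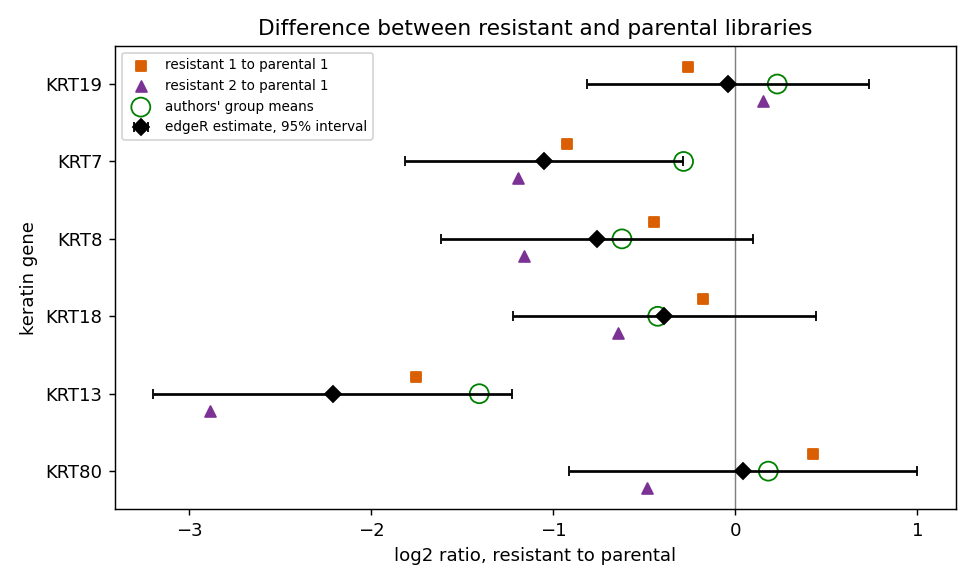
Log2 ratio of resistant to parental for 6 keratins. Diamonds with bars are the edgeR estimate with its 95% interval, squares and triangles are resistant 1 and resistant 2 over parental 1, and open circles are the authors' group means. KRT13 has the lowest estimate at -2.21, the bars of KRT8, KRT18, KRT19 and KRT80 cross 0, and KRT4 is left out because resistant 1 had 0 reads.

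Of the 10 members, 7 had enough reads to be tested, KRT4 only through its parental reads. KRT13, KRT7, KRT8 and KRT18 were lower in both resistant libraries than in parental 1, a pattern found in 34.5% of all tested genes. KRT4 was lower in both too, which its way through the filter had fixed in advance. No member was higher in both. The 7 tested members, KRT4 among them, had a median log2 fold change of -0.76, against 0.03 over all tested genes. A filter for 10 reads in 2 libraries and 30 in total removed KRT4. Under it the median of the 6 members tested was -0.57. With resistant 1 alone against parental 1 the median of the 7 members was -0.45, and with resistant 2 alone it was -1.16. The 2 resistant libraries differed from each other by a median of 0.59 on the log2 scale over the 6 members with at least 10 reads in both, compared with 0.34 over 14318 such genes. KRT13, KRT80, KRT8, KRT18 and KRT7 had lower levels in resistant 2 than in resistant 1, and KRT19 had a higher one. This contrast of 1 library with 1 has no replicate check.

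The make-up of the keratin pool differed between the libraries. Over the 42 protein-coding keratins in the table, FPKM summed to 5391 in parental 1, 4140 in resistant 1 and 4490 in resistant 2, and the 10 members made up 94.97%, 98.2% and 97.6% of these sums. Type I keratins summed to 3374, 2879 and 3616 FPKM and type II keratins to 2017, 1261 and 874 FPKM. The type II sum was thus lower in both resistant libraries, while the type I sum of parental 1 lay between those of the resistant pair. With 1 parental library, these sums were not tested. The ratio of type I to type II was 1.67 in parental 1, 2.28 in resistant 1 and 4.14 in resistant 2, and the gap between the resistant libraries was larger than that between resistant 1 and parental 1. The simple keratin KRT19 alone held 55.9%, 64.4% and 76.2% of all keratin FPKM, and without it the ratio was 0.177, 0.168 and 0.220. KRT8 exceeded KRT18 by 5.91-, 4.90- and 4.12-fold in FPKM. The 2 genes overlap on opposite strands and share words with pseudogenes, and the part of read counting in this ratio was not tested. In parental 1 the order by FPKM was KRT19 (3016), KRT7 (1103), KRT8 (773), KRT18 (131), KRT13 (65.6), KRT80 (26.9) and KRT4 (4.18). In the resistant pair KRT7 (617 and 492) and KRT8 (601 and 352) overlapped in range, and KRT13 (20.6 and 9.05) and KRT80 (38.4 and 19.7) also did, with KRT80 above KRT13 in each resistant library.

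**Figure D3:**
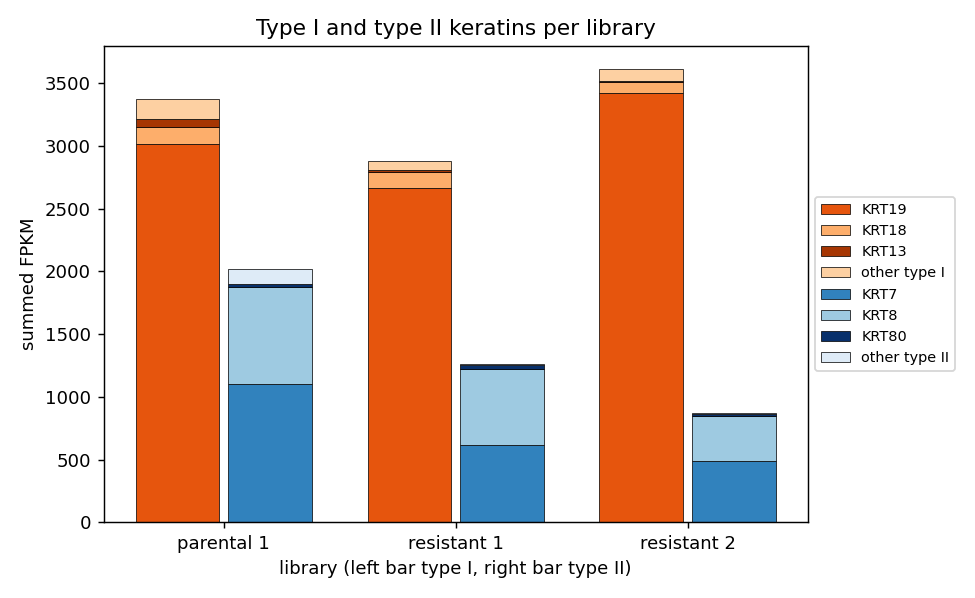
Summed FPKM of type I (left bar, orange) and type II (right bar, blue) keratins in each library, divided by gene. The type II bar is 2017 FPKM in parental 1 and 1261 and 874 FPKM in the resistant libraries, and KRT19 fills most of every type I bar.

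The members lie in 2 gene clusters, KRT4, KRT7, KRT8, KRT18, KRT80 and KRT81 on chromosome 12 and KRT13, KRT19, KRT20 and KRT23 on chromosome 17. Tested genes other than keratins within 2 Mb of the chromosome 12 cluster had a median log2 fold change of -0.56 over 50 genes, and the 764 such genes of the whole chromosome one of -0.36. The median of the 50 neighbours was -0.31 in resistant 1 and -0.80 in resistant 2, each against parental 1. KRT7 (-0.92 and -1.20), KRT8 (-0.45 and -1.16), KRT18 (-0.18 and -0.64) and KRT80 (0.43 and -0.48) had the same order of the resistant libraries as these neighbours, and the part of the region in their values was not tested. The edgeR estimates of KRT7 (-1.05), KRT8 (-0.76), KRT18 (-0.39) and KRT80 (0.04) lay between the 5th and 95th percentiles of these neighbours, -1.87 and 0.60. KRT4, tested only through its parental reads, is not set beside them. Around the chromosome 17 cluster the median was 0.14 over 119 genes, and KRT13 (-2.21) lay below the 5th percentile of these genes, -0.42. KRT19 (-0.04) lay above that percentile and below the 95th, 1.50.

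**Figure D4:**
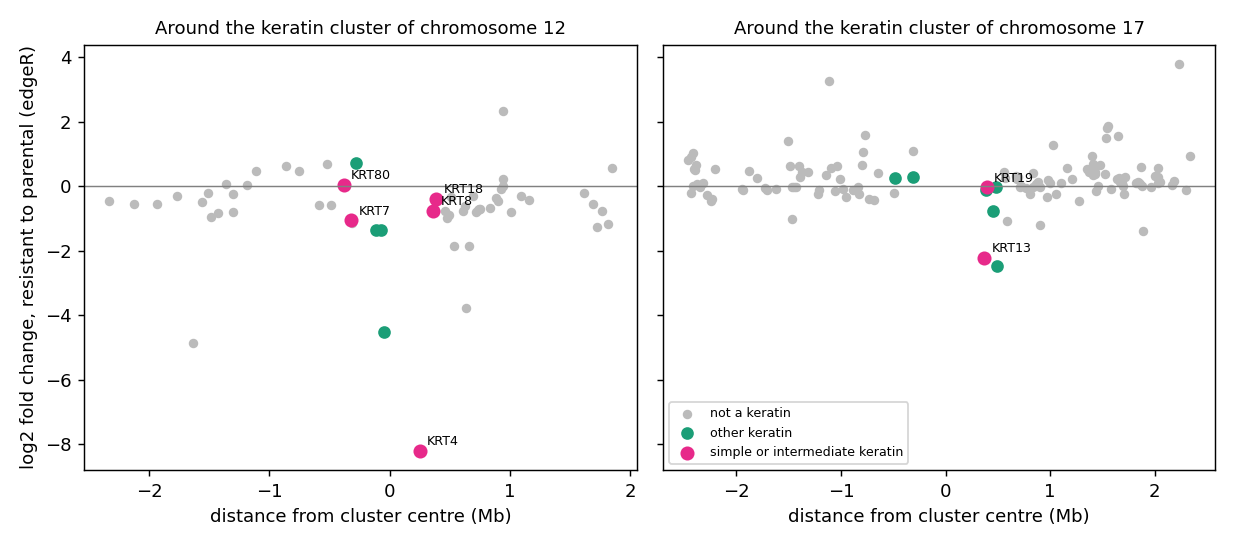
Log2 fold change (edgeR, resistant to parental) of tested genes against the distance from the centre of the keratin clusters on chromosome 12 (left) and chromosome 17 (right). Grey points are genes that are not keratins, with medians of -0.56 and 0.14, pink points are the keratins followed here and green points other keratins. The point of KRT4 depends on the prior count added in the fit.

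Some reads of these genes could belong to close copies or overlapping genes. Of the 50-base words in the KRT8 and KRT18 transcripts of GENCODE 29, 10.1% and 14.3% also occur in other genes, the largest share in the pseudogenes KRT8P3 and KRT18P11. The 27 KRT8 pseudogenes in the table held 201, 402 and 286 reads in all, few beside those of KRT8. The 19 KRT18 pseudogenes held 22, 39 and 50 reads. How reads matching several genes were counted is not given in the sources used here. These counts therefore do not show how many reads KRT8 or KRT18 lost. KRT8 and KRT18 overlap by 1084 bases on opposite strands, and whether the libraries kept the strand is not given in the sources used here. KRT81 shares 43.7% of its words with other genes, most with KRT86, inside which it lies, so its few reads are uncertain. KRT4 shares none, KRT13 0.561%, KRT7 0.399% and KRT19 0.977%.

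The other 32 protein-coding keratins in the table were compared as the rest of the family, and 10 were tested. KRT5, the main type II keratin of basal cells, had 272 CPM in parental 1 and 9.79 and 13.8 CPM in the resistant libraries (log2 fold change -4.52 ± 0.38 (SE), edgeR adjusted p = 0.000600). It was the single one called by edgeR, lower in the resistant libraries, whereas DESeq2 called 2, KRT5 and KRT17. Over all 15643 genes tested, edgeR called 137 and DESeq2 246. The authors' group means of KRT5, which cover further clones, were 11544 and 2047. The resistant mean lay far above the 160 and 240 reads of resistant 1 and resistant 2, and the parental mean above the 3829 reads of parental 1. For KRT6A, another basal keratin, the parental mean was 2111 beside 150 reads in parental 1. KRT17, a basal and stress-associated type I keratin, had 196, 17.2 and 53.4 CPM (edgeR adjusted p = 0.0784). KRT10 with 70.7, 76.8 and 96.7 CPM and KRT15 with 84.9, 81.3 and 74.7 CPM had adjusted p of 0.908 and 0.971 (edgeR). The 8 basal keratins together made up 4.40% of keratin FPKM in parental 1, 0.824% in resistant 1 and 1.34% in resistant 2, shares of single libraries and not of the groups. In every library, 19 of the other keratins were at or under the floor.

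Linkers and partners of keratin filaments were compared next. Of 12 such genes, all tested, 4 had a log2 fold change above 0 and 8 below, with a median of -0.25. The edgeR and DESeq2 tests each called 0 of them, and at an unadjusted p under 0.05 in edgeR there was 1, the plakin EPPK1, named after its values were seen (log2 fold change -1.07). Over all genes tested 0.876% were called and 1517 of 15643 had an unadjusted p under 0.05, so these counts are near the background. The cytolinker PLEC had 8266 CPM in parental 1 and 5701 and 7249 in the resistant libraries, and periplakin, PPL, had 503, 427 and 454 CPM. FAM83H, which takes part in keratin filament organization, had 1005, 707 and 1204 CPM, and SFN, the epithelial 14-3-3 protein, 364, 380 and 722 CPM.

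Of 13 intermediate filament genes that are not keratins, 10 were tested, 5 with a log2 fold change above 0 and 5 below, and both tools called 0. At an unadjusted p under 0.05 in edgeR there were 2, VIM and LMNB1, against the same background of 0.876% called and 1517 of 15643 at an unadjusted p under 0.05. Vimentin, VIM, the filament protein of mesenchymal cells, had 26.0 CPM in parental 1 and 40.8 and 78.5 in the resistant libraries (log2 fold change 1.20 ± 0.46 (SE), edgeR adjusted p = 0.420). The nuclear lamin LMNB1 had 339, 174 and 144 CPM (log2 fold change -1.09 ± 0.35 (SE), edgeR adjusted p = 0.301). The lamins LMNA, with 798, 654 and 751 CPM, and LMNB2, with 893, 646 and 980 CPM, had adjusted p of 0.95 and 0.971 (edgeR).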

How the data were processed

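RNA of single-cell clones of 5637P and 5637GR cells was sequenced from poly-A libraries. The authors deposited a table with raw read counts per gene and library, FPKM values that equal the counts scaled to the listed gene length and the library total, and per group a signal, the authors' mean of counts divided by a size factor. Gene length was used as deposited. It also holds the fold changes and p-values of the authors' own comparison, which were not used. The submitters' processing notes name hg19 and CASAVA 1.8, and the aligner, counter and annotation are not given in the sources used here. Of 28622 identifiers found in GENCODE 29 (GRCh38), 202 had the same start.

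Libraries were grouped by sample title and matched to columns by description. The 6 per-library columns without a label were not used. Counts were filtered with filterByExpr, scaled by TMM and tested with the quasi-likelihood test of edgeR 4.0.16 (R 4.3.3, prior count 0.125, 1 residual degree of freedom), and p-values were adjusted over 15643 genes. The SE was taken from the fitted coefficient and F. DESeq2 1.42.0 was an alternative, as were other scalings, filters, prior counts and the group means. Intervals of read ratios are exact (scipy 1.17.1) and cover counting error only. Figures used matplotlib 3.10.9. The only spread within a group is that of the resistant pair, since the parental group has a single library. In this edgeR fit the p-values rest mostly on spread pooled over all tested genes (8.94 prior degrees of freedom beside 1 residual). They do not measure variation between parental clones.

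The members, gene lists and tests were chosen with earlier results of these data known. All members were named, and of other lists the called genes and the 4 with the highest mean CPM. Basal keratins were given as a group.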

Additional observations from a re-analysis of the deposited data

How the results depend on the processing

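Depth and a single parental library limit these results, and the count of calls moved with most settings. KRT4, which enters a test only through its parental reads, was removed by the filter for 10 reads in 2 libraries and 30 in total. KRT13 had an edgeR adjusted p of 0.0540 and was called with DESeq2 size factors in edgeR (-2.22, adjusted p = 0.0146), library totals (-2.15, adjusted p = 0.0206), DESeq2 (-2.22, adjusted p = 0.00217) and no filter (-2.22, adjusted p = 8.9e-07), but not under the stricter filter. Members called numbered 1, and 2 with each of DESeq2 size factors, library totals, DESeq2, no filter and an adjusted p under 0.10. At an unadjusted p under 0.05 there were 3, and under the stricter filter edgeR called 0 of 6 members tested, with 2 at an unadjusted p under 0.05. Over all genes 137 calls became 235 with DESeq2 size factors, 228 with library totals, 246 with DESeq2, 534 without a filter, 22 under the stricter filter, 229 at an adjusted p under 0.10 and 1517 at an unadjusted p under 0.05. The log2 fold change of KRT19 changed sign with library totals (0.014) and with the group means (0.23). FPKM (0.014) also reversed it, but for 1 gene it nearly repeats the library totals. The log2 fold change of KRT19 ranged from -0.26 to 0.15 when 1 resistant library was left out. That of KRT80 ranged from -0.48 to 0.43 in the same way. The median over the 7 tested members, KRT4 among them, was -0.45 without resistant 2 and -1.16 without resistant 1. Both values rest on a single library per group and have no test. With the group means the same median was -0.43. No median without KRT4 was taken under these settings. The cause of these differences was not tested. No paired analysis was made, because the labels pair no parental clone with a resistant one. The ratio of type I to type II keratins is by construction equal with CPM per kilobase. Of the values recomputed under an alternative, 73 kept their direction and, where a test was made, their call. Keeping direction does not mean keeping size, since KRT7 went from -1.05 to -0.29 with the group means. The 73 are not separate checks. They include the type I to type II ratios, equal by construction, and the prior count of 2, which leaves p-values unchanged. They also include FPKM, which for 1 gene nearly repeats the library totals. Of the rest, 14 counts of calls moved, 5 values changed sign and 4 passed the threshold that they had missed.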
